A study of Mus musculus with 10 samples.

Results

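The genes described here are the Hoxa cluster and Meis1, taken as every entry of the deposited expression table named Meis1 or named Hoxa followed by a digit. Of the 10141 genes of the table, 10 are described: Meis1, on mouse chromosome 11, and 9 Hoxa genes of the cluster on chromosome 6 (Hoxa2, Hoxa3, Hoxa4, Hoxa5, Hoxa6, Hoxa7, Hoxa9, Hoxa10 and Hoxa11). The study sequenced RNA from mice in which leukaemia cells of the genotype MLL-AF9/GFP, thawed and injected through the tail vein, had grown in CD45.1 hosts until GFP+ cells made up 2% of the blood. GFP+ leukaemia cells (5 libraries) were set against GFP-CD11b+ myeloid cells of the same kind of leukaemic marrow (5 libraries), so the myeloid cells, written CD11b+ cells for short, too came from mice with leukaemia. The title of the series places the comparison in work on how glucose is shared out in leukaemic marrow. No normal immature marrow cells were in the comparison, so leukaemia and stage of maturation cannot be told apart. The treatment protocol has both populations sorted by flow cytometry, whereas the design text has the myeloid cells separated magnetically as CD45.2-CD11b+, and the cell type field reads as leukaemia for all 10 libraries, so that the titles decided the groups. Whether libraries came from separate mice is not stated, nor is how the fusion was introduced, whether the MLL-AF9/GFP line is clonal, or the age or further strain of the mice. The p-values therefore measure the spread between these libraries, which may be technical.

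Hox genes encode homeodomain transcription factors that lie in clusters, numbered in order along the chromosome, and the Hoxa cluster is active in haematopoietic stem and progenitor cells and is shut down as myeloid cells mature. MEIS1 is a homeodomain protein of the TALE class that binds DNA together with HOX and PBX proteins, and HOXA9 with MEIS1 is the pair best known for transforming mouse marrow progenitors. MLL, a histone H3 lysine methyltransferase, keeps Hoxa genes active, and its fusion with AF9 recruits elongation factors and the methyltransferase DOT1L to the Hoxa and Meis1 loci.

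All 10 genes were higher in GFP+ leukaemia cells than in GFP-CD11b+ myeloid cells. Ratios of mean normalised reads ran between 8.86 for Hoxa4 and 418 for Hoxa5, with only a lower bound for Hoxa6, which had no myeloid read. A normalised read is a counted read divided by the library's size factor, and both were recovered from the deposited log2 values. Hoxa7, Hoxa9, Hoxa10 and Meis1 passed the filter on low values (a mean over 1 log2 unit above the value that 0 reads take, about 145 normalised reads), and the other 6 were read from the same limma fit without that filter. The filter fell between Hoxa10, whose mean lay 1.39 log2 units above the lowest value, and Hoxa5, whose mean lay 0.89 above it. In the limma fits all 10 were called higher at a Benjamini-Hochberg adjusted p under 0.05. The table holds almost only genes that differ: 99.8% of the 8079 genes that passed the filter and 99.5% of all 10141 were called in either direction, and 49.1% and 50.8% were called higher, so the call itself sets these genes little apart and their sizes are given beside it. Among the calls 49.2% were higher in leukaemia, or 67.4% with each library scaled to its table total. A fold of at least 10 was seen for 9 of the 10 genes and for 5.41% of all genes. A fold of at least 100 was seen for 4 of the 10 (Hoxa5, Hoxa6, Hoxa9 and Hoxa10) and for 0.828% of all genes. No myeloid read at all, with reads in every leukaemia library, was seen for 1 of the 10 and for 1.52% of all genes. Every leukaemia library lay above every myeloid library for 9 of the 10, Hoxa2 being the exception, and for 43.3% of all genes. In bulk RNA, fewer cells that express a gene and less of its RNA per cell cannot be told apart.

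**Figure D1:**
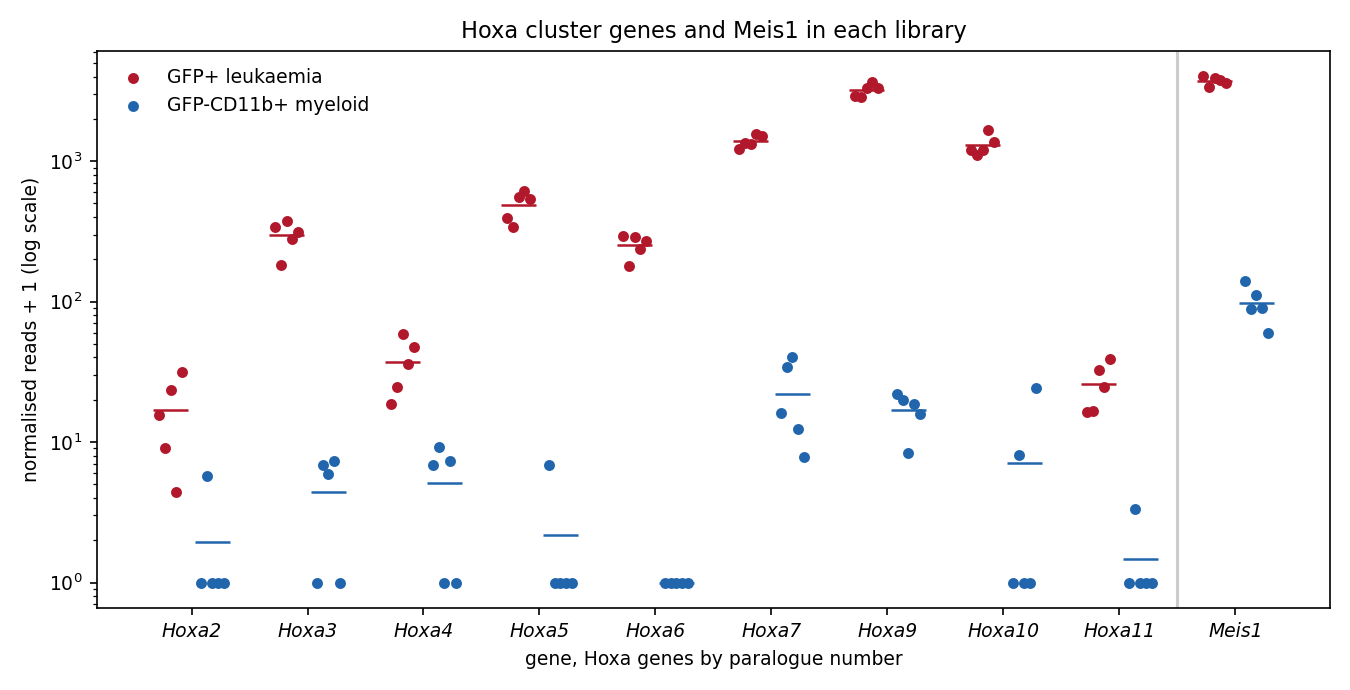
Normalised reads plus 1 (log scale) of the 9 Hoxa genes, by paralogue number, and Meis1 in each GFP+ leukaemia library (red) and each GFP-CD11b+ myeloid library (blue), with lines at the means of 5 libraries. Hoxa2 is the gene whose groups overlap, and points at 1 on the axis are libraries with 0 reads.

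Hoxa9 and Meis1, the genes of the pair named above, are described first. Hoxa9 had 2904, 2882, 3299, 3671 and 3317 normalised reads in leukaemia libraries 1 to 5, against 21.0, 18.9, 7.33, 17.7 and 14.9 in myeloid libraries 1 to 5. The lowest leukaemia library held over 100 times the normalised reads of the highest myeloid one, and the groups were far apart. The means were 3214 ± 329 in GFP+ cells and 16.0 ± 5.30 in CD11b+ cells (SD, n = 5 each), a 201-fold difference that ranked 38 of 10141 by size among genes higher in leukaemia. On the deposited log2 scale the difference was 3.36 (SE 0.064, limma adjusted p = 5.23e-13). Leaving out any 1 myeloid library moved the fold between 177 and 219.

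Meis1 had 4032, 3351, 3878, 3797 and 3626 normalised reads in the leukaemia libraries, against 139, 87.5, 109.9, 88.3 and 58.4 in the myeloid ones. The groups did not overlap, and Meis1 had reads in every myeloid library, between 43 and 119. Its means were 3737 ± 261 in GFP+ cells and 96.6 ± 29.9 in CD11b+ cells (SD, n = 5 each), 38.7-fold apart and ranked 183 (log2 difference 3.07, SE 0.068, limma adjusted p = 1.10e-12). Myeloid Meis1 stood at 2.58% of its leukaemia mean, against 0.497% for Hoxa9.

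Hoxa10, which in marrow acts in immature myeloid cells, had 1206, 1104, 1206, 1664 and 1378 normalised reads in the leukaemia libraries. It had 0, 7.09, 0, 0 and 23.1 in the myeloid libraries, and 17 of its 23 myeloid reads were in library 5. The groups did not overlap, and 3 of 5 myeloid libraries held no read. The means of 1312 ± 220 in GFP+ cells and 6.04 ± 10.02 in CD11b+ cells (SD, n = 5 each) gave a 217-fold difference (log2 difference 2.53, SE 0.099, limma adjusted p = 8.68e-11), and without myeloid library 5 the fold was 739.8.

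Hoxa7, another gene of the cluster known as a target of MLL fusions, had 1218, 1341, 1334, 1558 and 1501 normalised reads in the leukaemia libraries, against 15.2, 33.1, 39.1, 11.4 and 6.79 in the myeloid ones. The groups were far apart, and each myeloid library held some reads of it, 87 in all. The means were 1390.4 ± 138 in GFP+ cells and 21.1 ± 14.2 in CD11b+ cells (SD, n = 5 each), 65.9-fold apart (log2 difference 2.36, SE 0.073, limma adjusted p = 1.25e-11).

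The middle genes Hoxa5 and Hoxa6, which pattern the axial skeleton and, for Hoxa5, the lung, gave the largest ratios of means of the cluster over all libraries, though without myeloid library 5 the ratio was 739.8 for Hoxa10 and 334 for Hoxa5. Hoxa5 had 393, 336, 557, 611 and 539.9 normalised reads in the leukaemia libraries, against 5.83 in myeloid library 1 and 0 in myeloid libraries 2 to 5. Hoxa6 had 294, 179, 288, 238 and 268 in the leukaemia libraries and not 1 read in any myeloid library. Both were present in every leukaemia library, with library 2 the lowest for each. For Hoxa5 the means were 487 ± 117 in GFP+ cells and 1.17 ± 2.61 in CD11b+ cells (SD, n = 5 each), 418-fold apart, which ranked 17 of 10141 (log2 difference 1.70, SE 0.087, limma adjusted p = 1.11e-09). Its myeloid mean rests on 5 reads of library 1, and without that library Hoxa5 was at least 519-fold higher in leukaemia. For Hoxa6 the means were 253 ± 47.1 in GFP+ cells and 0 in CD11b+ cells, and against a floor of 3 reads over the myeloid group it was at least 342-fold higher in leukaemia (log2 difference 1.30, SE 0.057, limma adjusted p = 3.43e-10). Such bounds take reads as independent, and would be lower if reads were counted in pairs.

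Hoxa3, known for its part in forming the thymus and parathyroid, had 337, 182, 372, 277 and 312 normalised reads in the leukaemia libraries, against 0, 5.91, 4.88, 6.31 and 0 in the myeloid ones. The groups were far apart, with the lowest leukaemia library again library 2. The means were 296 ± 72.5 in GFP+ cells and 3.42 ± 3.17 in CD11b+ cells (SD, n = 5 each), 86.6-fold apart (log2 difference 1.27, SE 0.082, limma adjusted p = 1.08e-08). In the GENCODE annotation the span of Hoxa3 takes in Hoxa4, Hoxa5 and Hoxa6 and overlaps antisense RNAs of the cluster. No source used here gives the strand setting of the counting or says to which gene a read in an overlap was counted. The values of Hoxa3, Hoxa4, Hoxa5 and Hoxa6 are therefore uncertain by the reads that Hoxa3 could share with the other genes. Reads of antisense RNAs cannot be told apart from those of Hoxa3 or of Hoxa11, which also has an antisense RNA. None of 7 antisense RNAs of the cluster looked for had an entry in the table.

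The remaining 3 members had few reads in both populations. Hoxa2, a hindbrain patterning gene, had 14.7, 8.13, 22.3, 3.40 and 30.6 normalised reads in the leukaemia libraries, against 4.73 in myeloid library 2 and 0 in the other myeloid libraries. Its leukaemia library 4 (4 reads) fell below myeloid library 2 (also 4 reads), so the groups overlapped. The ratio of means was 16.7 (log2 difference 0.28, SE 0.064, limma adjusted p = 0.00106). Without myeloid library 2 there was no myeloid read and Hoxa2 was at least 16.9-fold higher in leukaemia.

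Hoxa4, which patterns the axial skeleton, had 17.8, 23.6, 58.2, 34.8 and 46.4 normalised reads in the leukaemia libraries, against 5.83, 8.27, 0, 6.31 and 0 in the myeloid ones. The groups did not overlap, but its 8.86-fold difference was the smallest of the 10, and its myeloid mean stood at 11.3% of the leukaemia mean (log2 difference 0.36, SE 0.070, limma adjusted p = 0.000293). Hoxa11, a gene of limb and kidney development, had 15.5, 15.5, 31.6, 23.8 and 38.0 normalised reads in the leukaemia libraries. The myeloid libraries together held 2 reads of it, both in library 2. The ratio of means was 52.6, with a 95% counting interval of 13.5 to 413 that covers counting error only (log2 difference 0.39, SE 0.051, limma adjusted p = 1.04e-05). Without myeloid library 2 no myeloid read was left and Hoxa11 was at least 26.6-fold higher in leukaemia. Differences on the deposited scale understate the change of such scarce genes, since that scale is compressed near 0 reads.

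**Figure D2:**
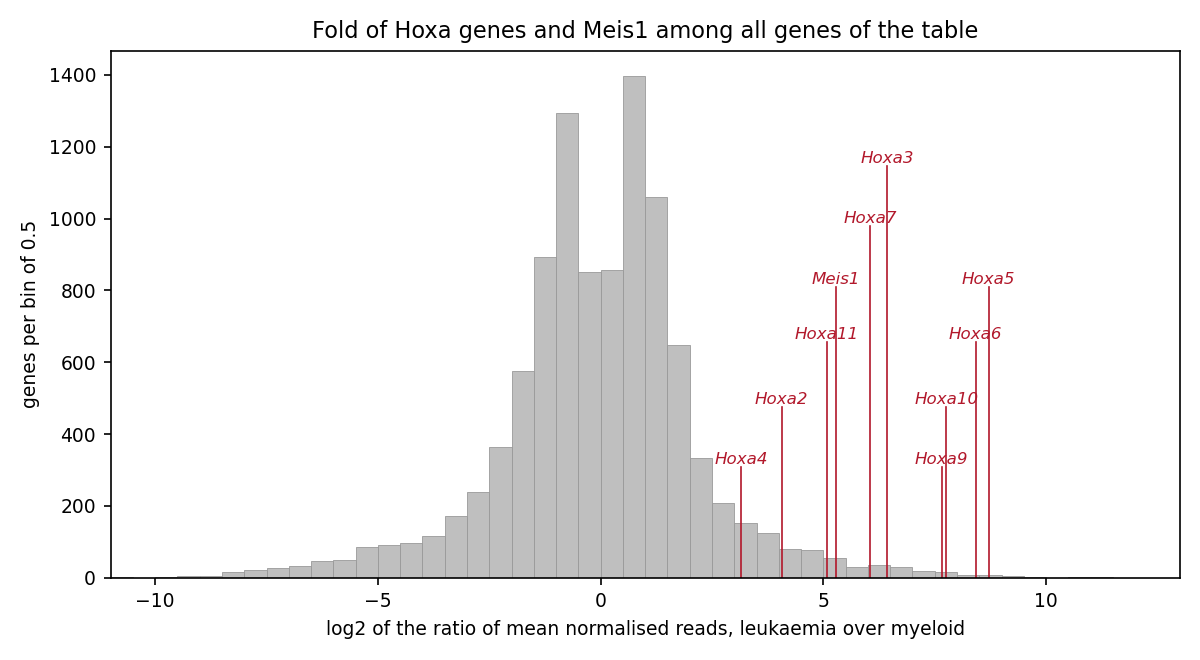
Number of genes per bin of the log2 ratio of mean normalised reads, leukaemia over myeloid, for all genes of the table (grey), with a red line at each Hoxa gene and at Meis1 (line heights serve the labels only). The members lie on the right between Hoxa4 at 8.86-fold and Hoxa5 at 418-fold, with Hoxa6 drawn at its lower bound and Hoxa11, under 3 myeloid reads, against the floor of 3 reads (log2 ratio 5.07).

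The Hoxa transcripts of the leukaemia cells came mostly from the middle and later genes of the cluster. To compare genes, normalised reads were divided by the merged exon length in GENCODE. Per kilobase, Hoxa9 was highest with 576 ± 59.0, followed by Hoxa7 with 483 ± 47.8, Hoxa10 with 401 ± 67.3, Meis1 with 355 ± 24.8, Hoxa6 with 289.9 ± 53.9 and Hoxa5 with 259.7 ± 62.4 (SD, n = 5 leukaemia libraries). Neighbours in this order had overlapping ranges. Within a library the order was steadier: Hoxa9 lay above Hoxa7 and Hoxa7 above Hoxa10 in 5 of 5 libraries, Hoxa10 above Meis1 in 4 of 5, Meis1 above Hoxa6 in 5 of 5 and Hoxa6 above Hoxa5 in 4 of 5. A step followed, since the lowest Hoxa5 library (179 per kilobase) was above the highest Hoxa3 library (61.9). Below it came Hoxa3 with 49.2 ± 12.1, Hoxa4 with 22.7 ± 10.3, Hoxa11 with 10.9 ± 4.35 and Hoxa2 with 8.91 ± 6.14 per kilobase, the ranges of neighbours overlapping. The levels of Hoxa3, Hoxa4, Hoxa5 and Hoxa6, and so the step, carry the uncertainty of overlapping spans given above. Hoxa9 made up 27.5% of the summed per-kilobase level of the 9 Hoxa genes, Hoxa7 23.1%, Hoxa10 19.0%, Hoxa6 13.8% and Hoxa5 12.2%. With the longest coding transcript as the length, Hoxa9 came to 996, Hoxa7 to 692, Hoxa10 to 511, Meis1 to 495 and Hoxa3 to 114 per kilobase, and the order of all 10 means was unchanged, but Hoxa10 then lay above Meis1 in 2 of 5 libraries.

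**Figure D3:**
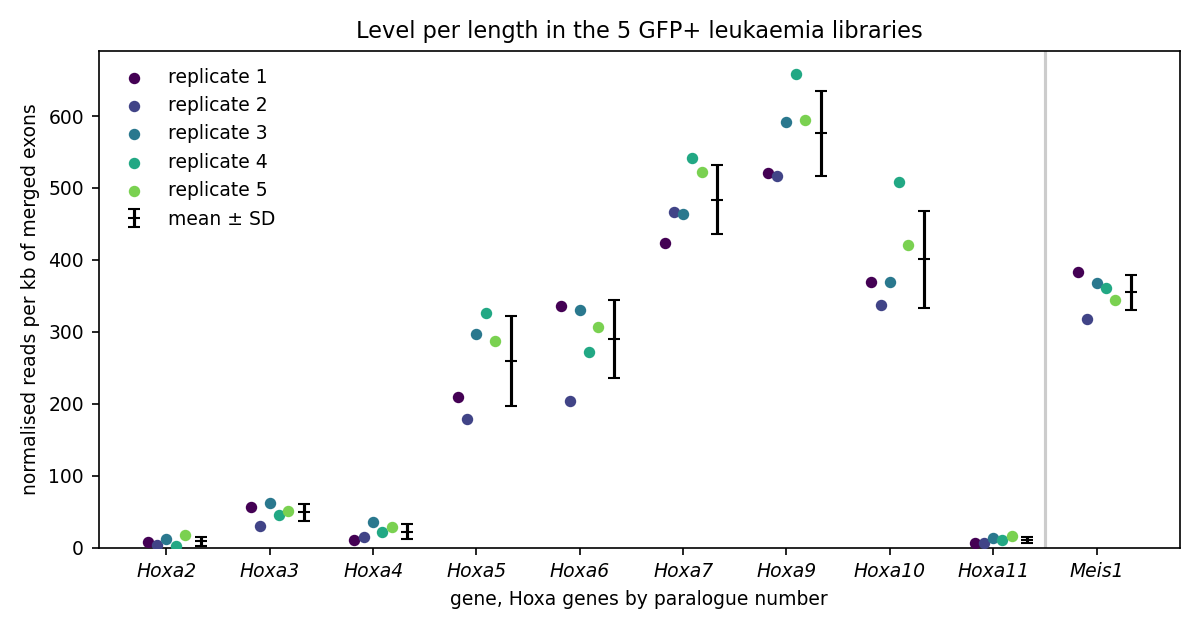
Normalised reads per kilobase of merged exons (linear axis) for each Hoxa gene, by paralogue number, and Meis1 in the 5 GFP+ leukaemia libraries (coloured points), with mean and SD in black. Hoxa5 to Hoxa10 and Meis1 stand at 179 per kilobase or more in every library, and Hoxa2, Hoxa3, Hoxa4 and Hoxa11 at 61.9 or less.

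Some members shared their highest or lowest leukaemia library, and others did not. Library 4 was the highest of the 5 for Hoxa5, Hoxa7, Hoxa9 and Hoxa10, but the lowest for Hoxa2. Library 2 was the lowest for 6 of the 10 genes (Hoxa3, Hoxa5, Hoxa6, Hoxa9, Hoxa10 and Meis1). Library 1 was the highest for Hoxa6 and Meis1 and the lowest for Hoxa4, Hoxa7 and Hoxa11. Hoxa3 and Hoxa4 were highest in library 3, and Hoxa2 and Hoxa11 in library 5. How often each library was highest or lowest among all genes was not counted. Relative to Hoxa9 in the same library, Hoxa7 was the steadiest, with a log2 ratio of normalised reads of -1.21 ± 0.08 (SD, n = 5). The ratio to Hoxa9 was -1.30 ± 0.12 for Hoxa10, 0.22 ± 0.16 for Meis1, -2.75 ± 0.23 for Hoxa5 and -3.68 ± 0.30 for Hoxa6. Per kilobase, Meis1 stood at 62.0 ± 7.10% of Hoxa9 (SD, n = 5).

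The myeloid libraries held a trace of most members. Whether these reads came from the CD11b+ cells themselves was not tested. Summed over the 9 Hoxa genes, the leukaemia libraries held between 8009 and 9970 reads, against between 33 and 68 reads in the myeloid libraries. Myeloid library 2 had the most, 68 reads from 7 Hoxa genes and 31.3% of all Hoxa reads of the group. As a percentage of the gene's leukaemia mean, the myeloid mean was 0.239 for Hoxa5, 0.460 for Hoxa10, 0.497 for Hoxa9, 1.16 for Hoxa3, 1.52 for Hoxa7, 1.90 for Hoxa11, 2.58 for Meis1, 5.98 for Hoxa2 and 11.3 for Hoxa4. The percentages differed between genes, but those of Hoxa2, Hoxa4, Hoxa5 and Hoxa11 rest on 4, 17, 5 and 2 myeloid reads. By library, the myeloid Hoxa9 trace ran between 0.228 and 0.653% of the leukaemia mean, below the Meis1 trace, which ran between 1.56 and 3.71%, in every myeloid library. Myeloid library 2 was also the highest of its group for the summed immature myeloid markers (56416 normalised reads, with a myeloid median of 29201). It was the highest too for the summed mature neutrophil markers (4.48e+06, with a median of 3.09e+06). The highest Hoxa9 and Meis1 traces were instead in myeloid library 1, where the immature myeloid markers summed to the median of 29201. Library 1 was the highest of its group for the summed B cell, T and NK cell, erythroid, megakaryocyte, macrophage, and stroma and endothelium markers. The part of these cell types in the traces was not tested. Without myeloid libraries 2 and 5 all 10 genes were still called higher in leukaemia. Nearly all genes tested also kept a call, in either direction, without these libraries, so the call sets the 10 genes little apart.

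Windows of 250 bases before 5 annotated starts are printed to show the sequence just upstream. They are those of Hoxa9, the member with the largest difference on the deposited scale, and of both annotated starts of Hoxa10. They are also those of Hoxa5, with the largest ratio of means among members with myeloid reads, and of Hoxa2, with overlapping groups. They come from RefSeq (GRCm38.p6, minus strand, printed 5′ to 3′), and capitals mark matches, on either strand, to 5 short motifs.
Hoxa9 (chr6:52227371-52227620): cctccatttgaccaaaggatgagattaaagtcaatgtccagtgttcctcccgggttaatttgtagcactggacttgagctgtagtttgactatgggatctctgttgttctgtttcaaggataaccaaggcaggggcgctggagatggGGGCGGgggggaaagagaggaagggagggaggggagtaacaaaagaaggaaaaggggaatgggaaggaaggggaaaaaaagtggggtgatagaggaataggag
Hoxa10, start farther upstream (chr6:52240855-52241104): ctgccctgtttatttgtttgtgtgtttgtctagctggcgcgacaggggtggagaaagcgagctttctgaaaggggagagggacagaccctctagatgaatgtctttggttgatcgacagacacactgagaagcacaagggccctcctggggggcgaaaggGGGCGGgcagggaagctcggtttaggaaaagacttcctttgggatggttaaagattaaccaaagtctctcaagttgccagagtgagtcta
Hoxa10, start farther downstream (chr6:52234940-52235189): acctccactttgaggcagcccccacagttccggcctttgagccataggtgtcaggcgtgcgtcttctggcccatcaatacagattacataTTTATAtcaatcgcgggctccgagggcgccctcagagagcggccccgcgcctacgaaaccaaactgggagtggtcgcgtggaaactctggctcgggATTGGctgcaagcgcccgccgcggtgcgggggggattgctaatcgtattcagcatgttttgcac
Hoxa5 (chr6:52204588-52204837): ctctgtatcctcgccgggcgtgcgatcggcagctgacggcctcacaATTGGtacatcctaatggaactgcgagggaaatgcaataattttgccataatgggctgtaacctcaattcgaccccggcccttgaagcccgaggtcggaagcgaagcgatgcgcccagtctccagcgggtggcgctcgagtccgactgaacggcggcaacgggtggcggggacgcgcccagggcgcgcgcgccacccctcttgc
Hoxa2 (chr6:52164832-52165081): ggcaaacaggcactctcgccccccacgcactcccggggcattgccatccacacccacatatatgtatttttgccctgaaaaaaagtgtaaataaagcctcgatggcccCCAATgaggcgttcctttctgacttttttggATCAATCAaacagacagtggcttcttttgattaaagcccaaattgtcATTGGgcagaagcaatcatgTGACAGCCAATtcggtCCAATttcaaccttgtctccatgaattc
The motifs searched were TGATTNAT as the composite site of HOX and PBX proteins, TGACAG as the site of MEIS proteins, TATAAA as the TATA box, GGGCGG as the GC box, and the letters CCAAT as the box named after them. In the Hoxa2 window the MEIS match runs directly into a match of the box named after its letters. RefSeq gave 10 windows for 9 of the 10 genes, Hoxa4 having no entry. Of these 10 windows, 1 held the HOX-PBX letters, 2 the MEIS letters, 1 the TATA box, 5 the CCAAT letters and 3 the GC box. The shares among all 32851 windows of the same length were 2.82%, 15.86%, 12.37%, 33.85% and 32.74% in the same order. The HOX-PBX match, 111 bases before the start, and a MEIS match, 44 bases before it, both lay in the Hoxa2 window, the gene with the overlapping groups, and neither motif was matched in the windows of Hoxa9, Hoxa10 and Hoxa5. CpG dinucleotides numbered 3 in the Hoxa9 window, 7 and 20 in the Hoxa10 windows, 28 in the Hoxa5 window and 6 in the Hoxa2 window, against a median of 6 over all windows. No measure of binding or methylation was analysed here, and a match describes letters only.

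Of the 8 nearest entries on either side of the cluster and of Meis1, 3 were higher in leukaemia and 5 lower. These neighbours were picked by position, as the nearest entries on each side, after the data had been seen. On the side of the low paralogue numbers, Skap2, an adaptor protein of immune cells, had 5705 ± 216 normalised reads in GFP+ cells and 12179.8 ± 1292 in CD11b+ cells (SD, n = 5 each) and was 2.13-fold lower in leukaemia (log2 difference -1.02, limma adjusted p = 3.31e-08). Snx10, a sorting nexin, was 3.09-fold lower. On the far side, Hibadh, an enzyme of valine breakdown, had 1359 ± 195 normalised reads in GFP+ cells and 1088 ± 178 in CD11b+ cells and was 1.25-fold higher, a call that was lost without leukaemia library 4 (limma adjusted p = 0.055). Creb5, a bZIP factor below the filter, had 1.16 ± 1.88 normalised reads in GFP+ cells and 30.6 ± 18.9 in CD11b+ cells and was 26.4-fold lower in leukaemia (limma adjusted p = 0.000156). Beside Meis1, Etaa1 and Wdr92 were 1.71-fold and 1.75-fold higher in leukaemia, and Spred2 and Actr2 were 2.26-fold and 2.21-fold lower. On the authors' scaling none of these 8 neighbours was more than 1.75-fold higher in leukaemia, against 38.7-fold for Meis1 and 8.86-fold or more for each Hoxa gene. With each library scaled to its table total, the log2 differences of recovered reads were 1.43 for Etaa1, 1.45 for Wdr92 and 0.96 for Hibadh. The 5 lower neighbours stayed below 0. Under the same scaling the log2 difference was 5.95 for Meis1 and 4.17 for Hoxa4.

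The partners of HOX proteins did not follow one direction. Of 3 TALE partners that passed the filter, 1 rose and 2 fell (median log2 difference -0.67, against -0.16 over all genes tested), or 1 and 1 with each library scaled to its table total. The share of all genes tested that was called higher was 49.1%. Pbx2, which encodes a DNA-binding partner of HOX and MEIS proteins, fell to 1740.0 ± 116 normalised reads in GFP+ cells, against 7468 ± 1309 in CD11b+ cells (SD, n = 5 each), a 4.29-fold difference (log2 difference -1.80, SE 0.098, limma adjusted p = 1.53e-09). Pknox1, a TALE gene related to Meis1, was 1.77-fold lower (2105 ± 117 in GFP+ cells and 3726 ± 961 in CD11b+ cells), a call that was lost with each library scaled to its table total. Pbx3, reported as the PBX partner of HOXA9 in human leukaemia, was the one that rose, with 886 ± 113 in GFP+ cells and 173 ± 22.7 in CD11b+ cells, 5.11-fold apart (log2 difference 1.19, SE 0.066, limma adjusted p = 1.91e-09). In the unfiltered limma fit 2 of the 5 partners with an entry were higher and 3 lower, and 50.8% of all genes were called higher. Of the 2 below the filter, Pknox2 had 0.962 ± 1.37 normalised reads in GFP+ cells and 176 ± 49.8 in CD11b+ cells, 183-fold lower in leukaemia (limma adjusted p = 2.55e-08), and Pbx4 had 115 ± 23.6 in GFP+ cells and 14.6 ± 11.6 in CD11b+ cells.

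Few genes of the other Hox clusters had an entry. Of 28 genes of the Hoxb, Hoxc and Hoxd clusters looked for, 5 were in the table, all Hoxb genes, and Hoxb4 alone passed the filter. Hoxb4, which expands haematopoietic stem cells when overexpressed, had 36.8 ± 11.1 normalised reads in GFP+ cells and 438 ± 97.2 in CD11b+ cells (SD, n = 5 each), and was 11.9-fold lower in leukaemia (log2 difference -1.16, SE 0.077, limma adjusted p = 1.04e-08). In the unfiltered limma fit 2 of the 5 were higher (Hoxb2 and Hoxb13) and 3 lower (Hoxb1, Hoxb3 and Hoxb4). In that fit 50.8% of all genes were called higher. Hoxb13 had 84.8 ± 24.0 normalised reads in GFP+ cells and no read in CD11b+ cells, and Hoxb3 had 25.9 ± 12.9 in GFP+ cells and 187 ± 42.2 in CD11b+ cells.

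The genes of the MLL and fusion complex, which switch the cluster on, were split about evenly, as all genes tested were. Of 16 that passed the filter, 8 rose and 8 fell (median log2 difference 0.01, against -0.16 over all genes). Of all genes tested, 49.1% were called higher. With libraries scaled by quantiles 10 genes of the complex rose and 4 fell, or 10 and 3 with each scaled to its table total. Ash2l, a core subunit of MLL methyltransferase complexes, was 3.64-fold higher in leukaemia (3871 ± 206 normalised reads, and 1062 ± 84.8 in myeloid cells), and Mllt1, an elongation factor subunit and AF9 relative, was 1.92-fold higher. Ell2 and Aff4, also of the elongation complex, were 4.13-fold and 2.60-fold lower. Mllt3, which encodes AF9, had 96.6 ± 12.8 normalised reads in GFP+ cells and 149 ± 38.8 in CD11b+ cells, below the filter. No source used here says whether reads of the fusion were counted to Mllt3, and its level does not check the genotype.

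The Polycomb repressors, which hold Hox genes silent, did not fall as a group. Of 15 that passed, 9 rose and 6 fell (median log2 difference 0.36, against -0.16 over all genes), or 10 and 1 with each library scaled to its table total. Higher calls made up 49.1% of all genes tested, and 67.4% of all calls under that scaling. Bmi1 and Rbbp4 were 2.84-fold and 2.08-fold higher in leukaemia, and Ezh1 and Cbx7 were 1.91-fold and 2.39-fold lower. Of 5 other regulators of the cluster, 1 rose and 4 fell (median -0.34), a split that turned to 3 and 1 under either of these scalings. Kdm6b, a demethylase of the Polycomb mark, had 1237 ± 161 normalised reads in GFP+ cells and 10753 ± 1371 in CD11b+ cells, and was 8.69-fold lower in leukaemia. Prmt5, an arginine methyltransferase, was 5.05-fold higher. Jmjd1c, a demethylase-family gene, was 1.44-fold lower, and its difference changed sign without passing the test when libraries were scaled by quantiles (0.066) or to the total of the table (0.096).

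Genes reported as targets of HOXA9 and MEIS1 went both ways, as all genes tested did. Of 18 that passed the filter, 9 rose and 9 fell, while 49.1% of all genes tested were called higher. The median log2 difference was 0.31, against -0.16 over all genes tested. Over the 19 with an entry in the unfiltered fit it was -0.17, against 0.15 over all genes. With libraries scaled by quantiles 9 rose and 8 fell, or 9 and 7 with each scaled to its table total. By difference on the deposited scale the highest were Cd34, a surface marker of progenitors, at 25.4-fold (7894 ± 1054 normalised reads in GFP+ cells and 311 ± 158 in CD11b+ cells), and the cell cycle kinase gene Cdk6, at 10.9-fold (20536 ± 1793 in GFP+ cells and 1878 ± 261 in CD11b+ cells). By ratio of means Sox4, a transcription factor of progenitors, stood above both at 26.6-fold (4434 ± 1033 in GFP+ cells and 166 ± 46.6 in CD11b+ cells). On the deposited scale the lowest were the kinase genes Pim1, 8.08-fold lower in leukaemia, and Camk2d, 169-fold lower, with 7.15 ± 5.62 normalised reads in GFP+ cells and 1208 ± 595 in CD11b+ cells. Cd34, Kit and Myb of this list are also in the immature myeloid markers, whose sum ran between 272570 and 340587 normalised reads in GFP+ cells and between 26530 and 56416 in CD11b+ cells. Of 4 other MLL-fusion targets that passed the filter, 2 rose and 2 fell (median 0.34), and of the 5 with an entry 3 were higher and 2 lower in the unfiltered fit (median 1.63, against 0.15 over all genes). The one below the filter was the homeobox gene Six4, with 412 ± 40.2 normalised reads in GFP+ cells and no read in CD11b+ cells, at least 556-fold higher in leukaemia. Eya1, which encodes a transcriptional coactivator and phosphatase, was 74.0-fold higher (2657 ± 307 in GFP+ cells and 35.9 ± 22.3 in CD11b+ cells), and Mef2c, which encodes a MADS-box factor, was 3.93-fold higher, and Cpeb2 and Tapt1 were 3.20-fold and 2.42-fold lower. Of 11 factors that meet HOXA9 on chromatin, 2 rose (Cebpa, 1.64-fold, and Stat5a, 1.29-fold) and 9 fell (median -0.57), with Cebpe 3.47-fold and Stat5b 2.74-fold lower in leukaemia. Under quantile scaling 3 of these factors rose and 5 fell, and under scaling to the total 3 rose and 4 fell.

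**Figure D4:**
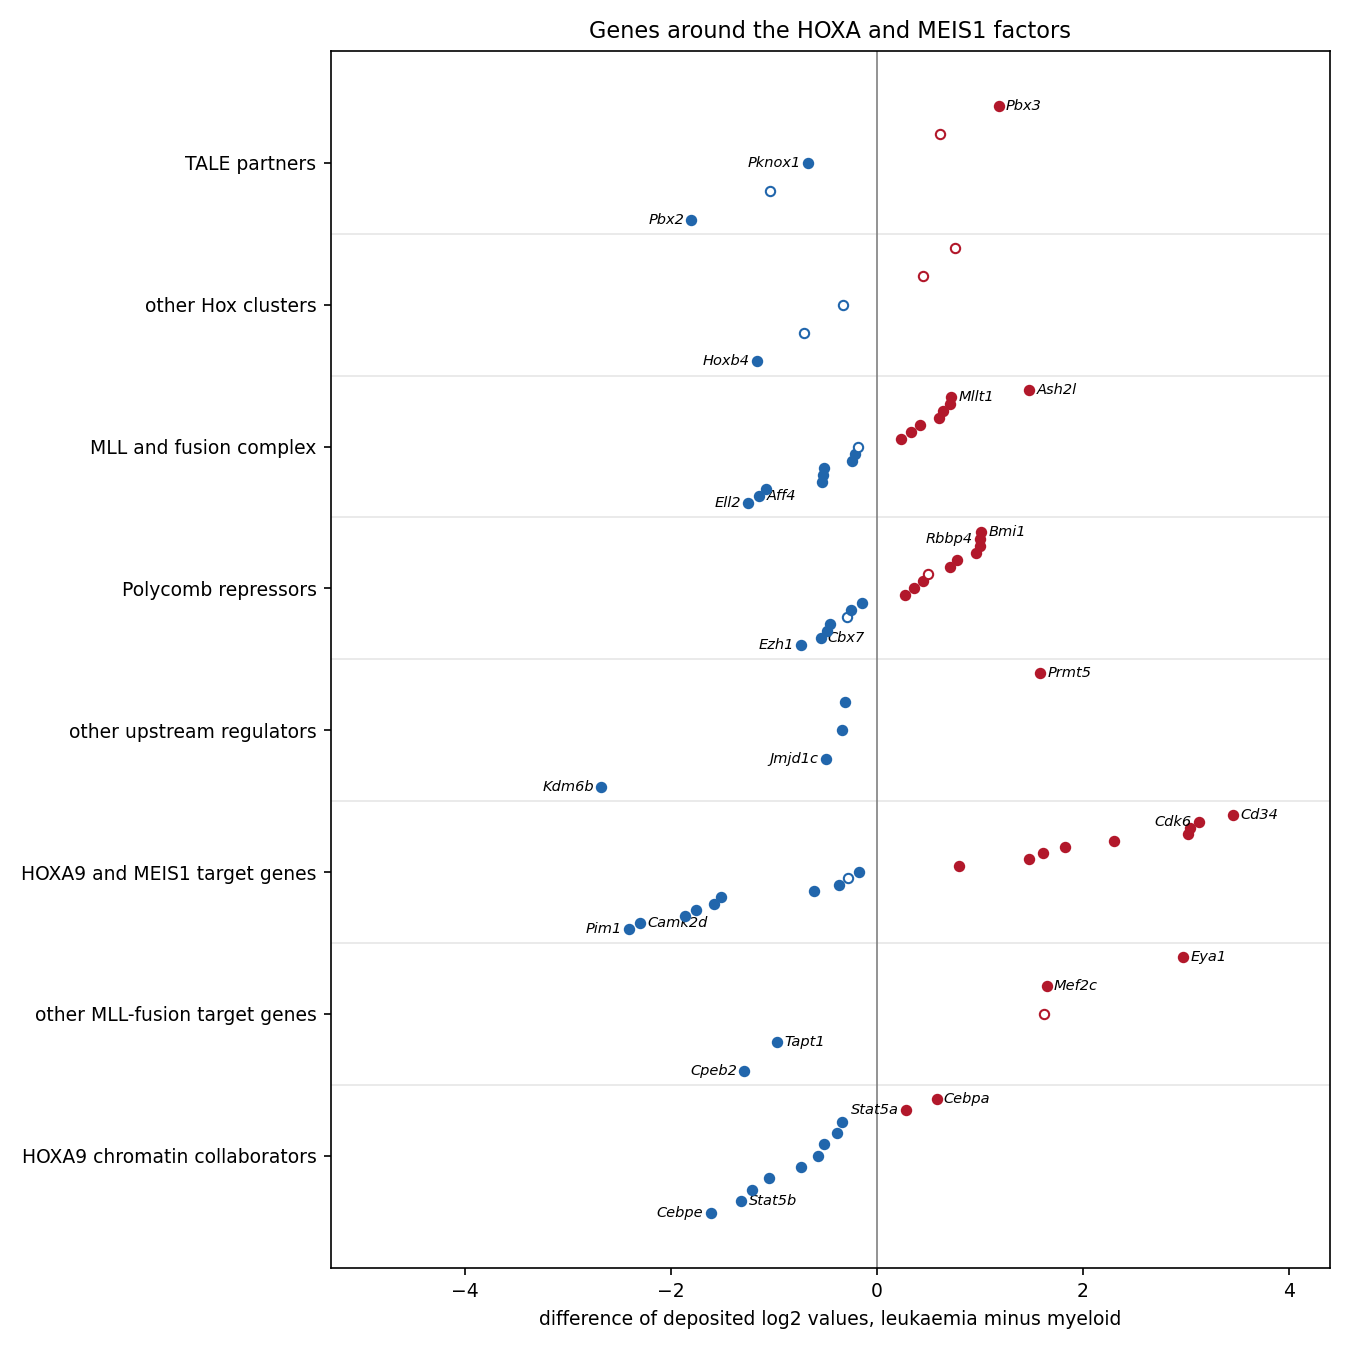
Difference of the deposited log2 values, leukaemia minus myeloid, for each gene with an entry in 8 lists of partners, regulators and targets; red points are higher in leukaemia, blue points lower, and open points lie below the filter on low values. Each list with more than 1 gene that passed holds genes on both sides of 0, with Kdm6b at -2.68 and Cd34 at 3.46 the farthest out.

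Few genes followed Hoxa9 or Meis1 more closely than they followed each other. Over the 10 libraries, which fall into the 2 sorted groups, so that r mainly reflects the difference between them, Meis1 was the 42nd gene by Pearson's r with Hoxa9 (r = 0.997 on the deposited values) and Hoxa9 the 18th with Meis1. Nearest to Hoxa9 were Ptprt, Pcdhb11, Cftr, Pcdhb12 and Ppm1f, all with r of 0.999. Nearest to Meis1 were Klhl41, Pecam1, Clec18a, Pcdhb11 and Myo7a, with r of 0.998 to 0.999. Hoxa7 came 89th with Hoxa9, Hoxa10 138th and Hoxa6 243rd, and Hoxa2, the gene with overlapping groups, came 4190th (r = 0.829).

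The populations went with their labels by markers. The 11 markers of the myeloid sort and of mature neutrophils summed to between 84073 and 88923 normalised reads in leukaemia and between 2.84e+06 and 4.48e+06 in myeloid cells. Markers of T and NK cells ran between 8.49 and 55.7 in leukaemia, with Cd3g at 0, and between 862 and 2318 in myeloid cells. B cell markers ran between 465 and 591 in GFP+ cells and between 483 and 2249 in CD11b+ cells. Fewer markers had entries for the rest. For erythroid cells (2 of 7) the sums ran between 2.55 and 62.0 in leukaemia and between 5.91 and 245 in myeloid cells, and for megakaryocytes (2 of 5) between 51.0 and 181 in leukaemia and between 182 and 310.1 in myeloid cells. For macrophages (3 of 7) they ran between 3665 and 5229 in GFP+ cells and between 1024 and 3216 in CD11b+ cells, and for stroma and endothelium (4 of 8) between 6884 and 8295 in GFP+ cells and between 855 and 1088 in CD11b+ cells, with most reads those of Pecam1. The part of other cell types in the Hoxa and Meis1 values was not tested. Libraries held between 24099551 and 30879584 reads of the table's genes in GFP+ cells and between 24712749 and 32247804 in CD11b+ cells.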

How the data were processed

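The deposited table gives variance-stabilised expression, normalised by the authors, on a log2 scale for 10141 genes in 10 libraries. Per the submitters' processing notes, the tools included DESeq2 and HISAT2, the second in versions 2.0.4 and 2.2.1. Not given in the sources used here are the genome build, annotation, read counter, strand setting and the filter that chose the table's genes. Libraries were made with a NEBNext Ultra kit from TRIzol RNA (0.6 to 3.37 ug), per the labels' protocols.

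All libraries shared the lowest value, 8.1823, taken as 0 reads. The stabilising function was inverted under a parametric form, and 100.0% of low values (up to 300 reads) came within 0.1 of a whole read in each library. Some counted reads may be parts of a pair, since values of 2 reads (433) outnumbered those of 1 read (36). Intervals and floors cover counting error only and take reads as independent, so for paired reads the intervals are too narrow and the bounds too high.

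Groups were compared with limma 3.58.1 (R 4.3.3) on the deposited log2 values, as leukaemia minus myeloid. The prior variance was trended, the tests were two-sided, and p-values were adjusted by Benjamini-Hochberg over all genes tested, after a check on simulated data. Folds are ratios of mean normalised reads. A gene with no read in a group was given a floor of 3 reads over that group, 0.740 normalised reads in myeloid cells. Log2 ratios to Hoxa9 used a pseudocount of 1. The members and lists were chosen with earlier results of these data known, so neither is independent of them. The fits held all genes, but 3 genes, 1 of them selected by the rule, are not reported here and are left out of the counts of members and lists. Genes named are all members, the 5 entries with the highest r with Hoxa9 and with Meis1, and marker genes. From each list they are the 2 highest and the 2 lowest on the deposited scale among those that passed the test. The neighbours of the cluster and of Meis1 and the unfiltered Hoxb genes were added after their values were seen. So were Pbx4, Pknox2, Six4, Sox4, Mllt3, Phf19, Rbbp7, Cbx2 and Pcgf2. Alternatives were other filters, scalings, pseudocounts and lengths, limma with voom on recovered reads, limma without a trend, a replicate block, and leaving out each library.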

Additional observations from a re-analysis of the deposited data

Results flagged for a closer look

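Within each group of 5 libraries, the normalised reads of the 10 genes were searched for a lowest or highest library set apart from the other 4 by more than Dixon's 95% critical value (0.71 of the range). Of 19 groups with reads, 3 were picked out, all 3 of them in the myeloid group. A rate of about 1 in 20 groups by chance holds for continuous, normally distributed values. A group with reads in only 1 library is picked out whatever their number, so the count cannot be set against that rate. Hoxa2 had 4.73 normalised reads in library 2, Hoxa11 had 2.36 in library 2 and Hoxa5 had 5.83 in library 1, and the other 4 myeloid libraries had no read of the gene in each case. Leaving out the library in question ended none of the calls of these 3 genes.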

How the results depend on the processing

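All 10 members were called higher in leukaemia in each of 19 alternatives, with a highest limma adjusted p of 0.00415, for Hoxa2. Members below a filter were read from the fit without it, so the filter alternatives could not drop them. In the unfiltered limma fit 99.5% of all genes were called in either direction and 50.8% were called higher. The log2 differences of the members depended on the scale, between 3.32 and 8.31 for Hoxa9 and between 0.24 and 4.37 for Hoxa2. The larger values came from recovered reads. Genes called higher numbered 2415 under the stricter filter, and genes called lower 2232 with scaling to the total of the table, which moved the median of all genes by 0.64 (log2) and put 67.4% of calls on the higher side, against 49.2%. Without a filter, 2 TALE partners and 2 other Hox genes were higher and 3 other Hox genes lower. Under the stricter filter 0 TALE partners were higher, 0 other Hox genes lower and 1 other MLL-fusion target higher. Under quantile scaling and total scaling, the MLL complex had 4 and 3 lower, the other regulators 3 and 3 higher and 1 and 1 lower, and the HOXA9 collaborators 5 and 4 lower. Under total scaling 1 Polycomb gene and 1 TALE partner were lower. The Jmjd1c log2 difference turned to 0.066 and 0.096 under these scalings, the Cbx7 log2 difference missed the threshold under total scaling (-0.51, limma adjusted p = 0.109), as did the Pknox1 log2 difference (-0.16), and the cause was not tested. By longest coding transcript, levels per kilobase were 114 for Hoxa3, 692 for Hoxa7, 996 for Hoxa9, 511 for Hoxa10 and 495 for Meis1. Same-numbered libraries deviated together (r over 0.1) in 4 of 5 pairs, the exception being number 5 (r = -0.022), but differently numbered pairs reached 0.348, and leukaemia library 1 followed myeloid library 3 (0.326) more than its own number (0.130). No label says what a number shares, so the numbers were not taken to pair the libraries. With a replicate block the genes called between groups numbered 8018 and all 10 members were called. Leaving out 1 library gave between 7888 and 7959 genes called between groups. Depth limits what can be said of Hoxa2, Hoxa4 and Hoxa11.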
